A study of Mus musculus with 24 samples.

Results

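The 10 CC chemokine genes Ccl2, Ccl3, Ccl4, Ccl5, Ccl6, Ccl7, Ccl9, Ccl12, Ccl19 and Ccl24 were followed in endothelial cells and microglia of mouse brain slices. They were taken by symbol from a table of 20555 genes for each cell type. All 10 lay above the lowest value of the table in at least 1 endothelial library, and 9 did so in microglia, where Ccl19 was listed at 0 in all 11 libraries. The gene table of GRCm38.p6 places 8 of them on chromosome 11, Ccl19 on chromosome 4 and Ccl24 on chromosome 5.

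CC chemokines are small secreted proteins named for a pair of adjacent cysteines near the start of the mature chain. They bind G protein-coupled receptors on leukocytes and draw these cells toward higher concentrations, and heparan sulphate on endothelium holds them at the vessel wall. In the brain, microglia and macrophages at the borders are known to release many of them when activated, and endothelial cells release Ccl2 in inflammation. Transcription of several inflammatory members is known to depend on NF-kB.

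The slices had received phosphate-buffered saline (PBS) or exosomes, which are small vesicles that cells shed, labelled with the membrane dye PKH67. The dose was 5 µg per slice, and the treatment lasted 2 days. The series title names tumour exosomes and the protein CEMIP. The WT groups received exosomes called wild type, and the KO1 and KO2 groups received exosomes of 2 knockouts that the labels do not describe further. Endothelial cells were sorted as CD45- CD31+ and microglia as CD45+ with low CD11b and low CD49d. PBS samples carry the same exosome-positive wording in the labels as the others, and how they were gated is not stated. No strain, age or number of animals is stated in the sources used here. Of endothelial cells there were 3 PBS, 2 WT, 3 KO1 and 2 KO2 libraries, 10 in all, and of microglia 2 PBS and 9 exosome libraries, 3 for each exosome. Each library carries a letter, A, B or C, whose meaning the labels do not state. Nothing says that libraries came from separate animals or cultures, so p-values cover the spread between libraries, possibly only technical. Endothelial WT C, endothelial KO2 A and microglial PBS C were not analysed here.

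The chromosome 11 members form a pair of groups. Ccl2 (chr11:82035577-82037452, plus strand) is followed by Ccl7, which starts 10.1 kb further, and by Ccl12, 66.3 kb further. Ccl5, Ccl9, Ccl6, Ccl3 and Ccl4 start 1490 to 1613 kb beyond the start of Ccl2. The annotated span of Ccl4 (chr11:83648624-83664683, plus strand) overlaps that of Ccl3 (chr11:83647843-83649378, minus strand), and the sources used here do not say whether counting used the strand. No 31-base stretch of their coding transcripts was found in transcripts of another gene, on either strand. Promoter windows of RefSeq on GRCm38.p6, from 250 bases before the annotated start to 50 bases after it, were at hand for 5 members: Ccl3, Ccl6, Ccl9, Ccl12 and Ccl19. Printed here 5' to 3' on the coding strand are those of Ccl3, the most abundant member in microglia, of Ccl12, a microglial member above PBS in each same-letter comparison, and of Ccl9, which did not share that pattern. Capitals mark matches to an NF-kB motif (GGG, any 5 bases, CC; both strands) and to TATAA, which was searched on the coding strand with its first base 40 to 15 bases before the start.
Ccl3 (chr11:83649329-83649628, minus strand): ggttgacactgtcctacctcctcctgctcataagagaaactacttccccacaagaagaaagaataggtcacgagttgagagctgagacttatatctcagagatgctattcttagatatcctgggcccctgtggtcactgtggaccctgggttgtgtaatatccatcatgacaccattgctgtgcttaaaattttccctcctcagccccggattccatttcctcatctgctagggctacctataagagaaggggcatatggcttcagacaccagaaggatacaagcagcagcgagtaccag
Ccl12 (chr11:82101595-82101894, plus strand): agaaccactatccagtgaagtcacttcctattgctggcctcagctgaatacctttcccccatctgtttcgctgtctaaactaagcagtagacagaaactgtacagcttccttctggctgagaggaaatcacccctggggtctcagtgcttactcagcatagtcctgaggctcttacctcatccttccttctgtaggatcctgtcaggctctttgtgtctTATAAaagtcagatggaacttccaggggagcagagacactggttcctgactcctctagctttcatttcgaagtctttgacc
Ccl9 (chr11:83578587-83578886, minus strand): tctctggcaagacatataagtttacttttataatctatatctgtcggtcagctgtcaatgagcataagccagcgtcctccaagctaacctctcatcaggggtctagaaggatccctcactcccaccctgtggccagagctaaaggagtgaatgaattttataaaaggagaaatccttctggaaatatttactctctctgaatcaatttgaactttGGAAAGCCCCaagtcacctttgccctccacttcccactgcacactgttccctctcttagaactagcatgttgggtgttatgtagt

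The Ccl9 window held 1 NF-kB match, GGAAAGCCCC on the minus strand, starting 35 bases before the annotated start. The Ccl3 and Ccl12 windows held none, and a match to that motif was present in 50.8% of 32851 mouse promoter windows of the same length. TATAA was found in the Ccl12 window 31 bases before the start, and 3.79% of all windows held it in the stretch searched. The same letters also stand in the Ccl3 window, nearer the start than that stretch, and in the Ccl9 window, further from the start. Those lie outside the stretch and are not marked. The AP-1 motif TGANTCA, which reads the same on both strands and was found in 7.81% of windows, occurred once in Ccl9, as TGAATCA. An interferon response motif (GAAA, any 2 bases, GAAA; both strands) was in 3.44% of windows and in the Ccl19 window, not in the other 4. These are letter matches in 1 window per gene and no record of binding.

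Levels are given as normalised counts recovered from the deposited log2 values, and the cell types were normalised separately, so levels are not set across them. Recovered totals were 25.7 to 28.0 M in endothelial libraries and 27.0 to 29.4 M in microglial ones. Pecam1, the gene of the sort marker CD31, was at 42620 to 56200 normalised counts in endothelial libraries and at most 283 in microglia. Ptprc, the gene of CD45, was at 1527 to 3977 in microglia and listed at 0 in 8 of 10 endothelial libraries. P2ry12, a defining marker of resting microglia, was listed at 0 in 10 of the 11 libraries labelled microglia, and Tmem119 lay between 0 and 431. In bulk libraries, fewer cells of a type and less RNA per cell cannot be told apart.

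In microglia the 10 genes together made up 0.643% and 0.982% of all normalised counts in PBS A and B. Their share was 0.984 to 1.66% in the exosome libraries lettered A and B, and 0.462 to 0.597% in the 3 lettered C. Ccl3 supplied 39.7 to 54.5% of that sum. Per kilobase of coding-transcript exon, the order of mean levels over all 11 libraries was Ccl3 (183984 normalised counts per kb), Ccl4 (132863), Ccl5 (82090), Ccl2 (6897), Ccl6 (2941), Ccl9 (2760), Ccl7 (2591), Ccl12 (566) and Ccl24 (3.75). Each neighbouring pair in that order overlapped in range over the libraries. In the 2 PBS libraries the order differed in that Ccl2 came after Ccl6 and Ccl9, and the ranges of Ccl4 and Ccl5 did not overlap there.

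In endothelial cells the share was 0.011 to 0.093% of normalised counts, and Ccl2 supplied 53.3 to 77.3% of it. The order of means per kilobase was Ccl2 (10468), Ccl7 (2745), Ccl5 (2206), Ccl3 (806), Ccl4 (273), Ccl19 (91.3), Ccl12 (25.5), Ccl6 (22.4), Ccl9 (20.2) and Ccl24 (2.67), and neighbouring ranges overlapped throughout. Ccl2 was first in each endothelial group. Ccl7 came second with PBS (2262 per kb, Ccl5 228) and KO2 (4078, Ccl5 3429), and Ccl5 came second with WT (4007, Ccl7 3048) and KO1 (2167, Ccl7 2138). The ranges of Ccl5 and Ccl7 overlapped with each exosome and not with PBS. Ccl19 shares 63.3% of its 31-base words with transcripts of other genes, foremost Gm2564, Ccl19-ps3 and Gm12407, so its counts are uncertain. For Ccl9 that share was 4.03%, for Ccl6 1.28%, for Ccl24 0.08%, and for the other 6 members 0.

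The microglial libraries lettered C stood apart for several members, as the values that follow show. With no PBS C library analysed, the C exosome libraries could not be set against PBS of their own letter.

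Ccl2, Ccl7 and Ccl12 encode ligands of Ccr2, the receptor that draws monocytes out of blood. Ccl2 in microglia was at 1646 and 2224 normalised counts in PBS A and B. It reached 10158 (WT), 7927 (KO1) and 6408 (KO2) in the exosome libraries lettered A, and 9305, 8412 and 8853 in those lettered B. In the C libraries it was at 2208, 1930 and 2608. All 6 exosome libraries of letters A and B therefore lay above both PBS libraries, by 3.78 to 6.17 times within a letter, while the C libraries overlapped the PBS range. Over all letters the mean was 6423 ± 3296 (SD, n = 9) with exosomes and 1935 ± 409 (SD, n = 2) with PBS.

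Ccl7 was at 2641 and 537 in PBS A and B, at 4293, 3885 and 2185 in WT, KO1 and KO2 of letter A, and at 2826, 1961 and 2783 in those of letter B. The C libraries held 354 (WT), 631 (KO1) and 737 (KO2). The exosome libraries overlapped the PBS libraries, and 5 of 6 same-letter ratios to PBS were above 1 (0.827 to 5.27). Ccl12 was at 211 in PBS A and listed at 0 in PBS B, against 556, 566 and 605 in WT, KO1 and KO2 of letter A, 531, 161 and 186 in letter B, and 186, 151 and 187 in letter C. It was above PBS in all 6 same-letter comparisons, by 2.63 to 2.87 times in letter A. At this level the recovered counts of microglia are approximate.

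Ccl5, also known as RANTES, attracts T cells and monocytes. In microglia it spread widely. PBS A and B held 10750 and 8221 normalised counts. The letter A libraries held 138602 (WT), 97846 (KO1) and 80792 (KO2), and the letter B libraries 51587, 38353 and 41905 in the same order. The letter C libraries held 6031, 2599 and 3702, below both PBS libraries. Within letters A and B, exosome libraries were 4.67 to 12.9 times the PBS library, and with the C libraries included the groups overlapped in range.

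Ccl3 and Ccl4 encode MIP-1 alpha and beta, which attract monocytes and T cells. Ccl3 was at 83709 and 155019 in PBS A and B, and at 199686, 176131 and 109917 in WT, KO1 and KO2 of letter A. It was at 253119, 178729 and 181451 in letter B and at 73927, 61995 and 76567 in letter C. Same-letter ratios to PBS were 1.15 to 2.39, smaller than those of Ccl2 and Ccl5, and the C libraries again lay below both PBS libraries. Ccl4 was at 61959 and 104840 in PBS, 105556, 95902 and 73136 in letter A, 138036, 100209 and 112736 in letter B, and 63990, 49537 and 58683 in letter C. It was above PBS in 5 of 6 same-letter comparisons (0.956 to 1.70).

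**Figure D1:**
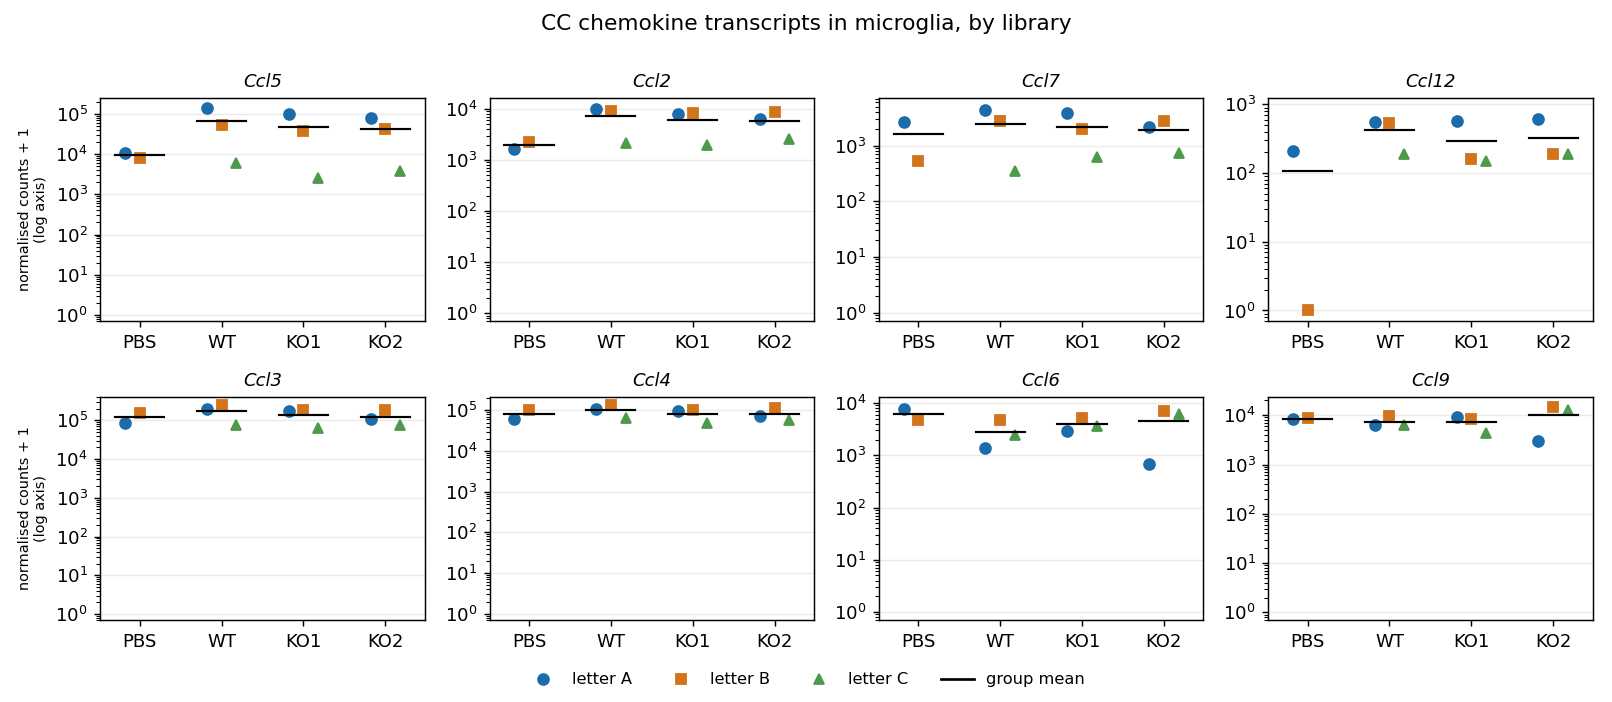
Normalised counts plus 1 (log axis) of 8 CC chemokine transcripts in the 11 microglial libraries, by group. Points are libraries, colour and shape give the letter, and horizontal lines are group means. For Ccl5 and Ccl2 the letter A and B exosome libraries lie above both PBS libraries and the letter C libraries lie lower than these, whereas Ccl6 and Ccl9 show no such order.

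Ccl6 and Ccl9 belong to a mouse group of ligands of Ccr1 made by myeloid cells. Ccl6 in microglia was at 7829 and 4761 in PBS A and B, at 1373, 2965 and 671 in WT, KO1 and KO2 of letter A, at 4687, 5281 and 6902 in letter B, and at 2396, 3610 and 6102 in letter C. It was below PBS in all 3 letter A libraries and above it in 2 of 3 of letter B. Ccl9 ranged from 2937 (KO2 A) to 14669 (KO2 B) with exosomes, around PBS values of 8215 and 8709, and 3 of 6 same-letter comparisons were above PBS. Ccl24, an eosinophil attractant that binds Ccr3, did not exceed 24.7 normalised counts in any microglial library.

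**Figure D2:**
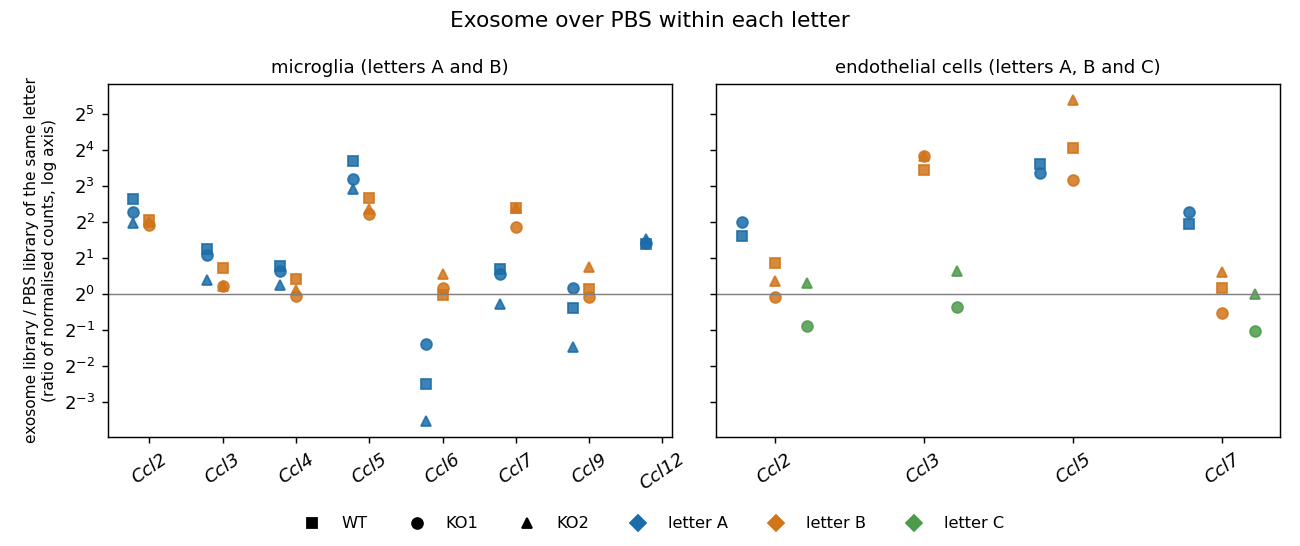
Ratio of each exosome library to the PBS library of the same letter (log axis), for microglia and endothelial cells. Symbols give the exosome and colours the letter, and a ratio is drawn only where both counts are at least 50. In microglia, Ccl5 ratios run from 4.67 to 12.9 and Ccl2 ratios from 3.78 to 6.17, while Ccl6 ratios in letter A lie below 1.

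Differences were tested on the deposited log2 scale with limma over all tested genes and Benjamini-Hochberg adjustment. The fit had no term for the letter. In it, no member passed at 0.05 in microglia with all exosomes set against PBS. There 1 of 12002 genes passed (0.00833%) and 650 had an unadjusted p under 0.05. With the letter as a block the calls of Ccl2 and Ccl5 differed, as given in the closing section. The log2 difference of Ccl2 was 1.01 (SE 0.47, limma adjusted p 0.903), that of Ccl5 1.63 (SE 1.36, adjusted p 0.943) and that of Ccl12 0.43 (SE 0.17, adjusted p 0.883). For Ccl12 the unadjusted p was 0.0236. Of the 9 members tested, 7 lay above 0 with a median of 0.21, against 49.9% of all genes and a median of -0.001. WT against PBS passed no gene (0%, with 614 at an unadjusted p under 0.05), and the log2 differences were 2.04 for Ccl5 (SE 1.59, adjusted p 0.969), 1.13 for Ccl2 (SE 0.54, adjusted p 0.948) and 0.49 for Ccl12 (SE 0.19, adjusted p 0.898). Both comparisons share the 2 PBS libraries.

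These values depended on the letter C libraries. Without them the Ccl2 difference between all exosomes and PBS in microglia was 1.47 (SE 0.14, limma adjusted p 0.0484), which passed as 1 of 3 genes among 12002 (0.025%), and that of Ccl5 was 2.95 (SE 0.56, adjusted p 0.311), which did not. Exosome libraries were above the PBS library of their letter in every one of 6 pairs for 4 of 9 members, Ccl2, Ccl3, Ccl5 and Ccl12. The same held for 6.57% of the 12002 genes tested. These 6 pairs rest on 2 PBS libraries, each used 3 times.

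**Figure D3:**
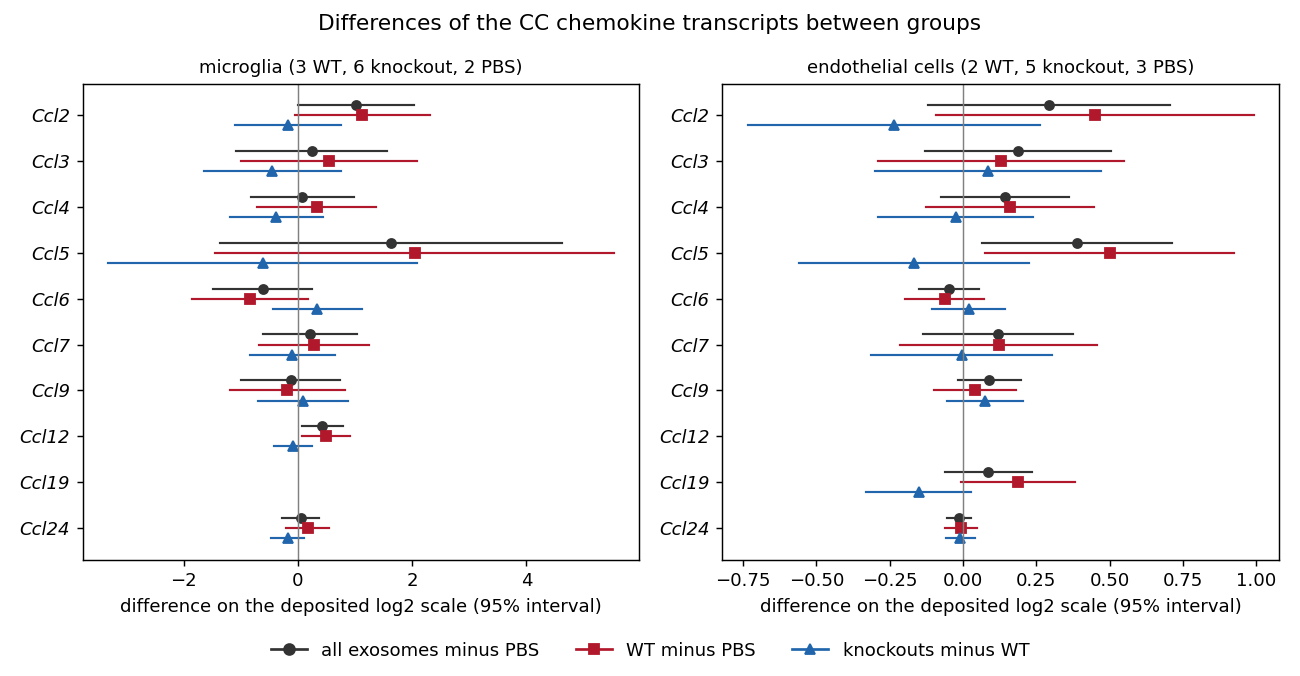
Differences between groups on the deposited log2 scale with 95% intervals from limma, for the members tested in each cell type; the horizontal scales differ. Most intervals include 0, and none of the differences passed after adjustment over all genes. Ccl12 was not tested in endothelial cells, nor Ccl19 in microglia.

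Set against WT exosomes, the knockout exosomes gave no passing gene in microglia (0%, with 387 at an unadjusted p under 0.05). The log2 differences were -0.62 for Ccl5 (SE 1.23), -0.45 for Ccl3 (SE 0.55), -0.38 for Ccl4 (SE 0.37) and -0.17 for Ccl2 (SE 0.42), each with a limma adjusted p of 1. Of 9 members, 2 lay above 0 (median -0.17), against 50.1% of all genes and a median of 0. Within letters, Ccl5 was lower with KO1 and KO2 than with WT in 6 of 6 pairs, at 0.431 to 0.812 times the WT library. Ccl4 was also lower in 6 of 6 pairs (0.693 to 0.917), Ccl3 in 5 (0.55 to 1.04) and Ccl2 in 5, all but KO2 against WT in letter C. For all genes, 3.15% were lower in every pair. These 6 pairs are not independent, as each WT library is set against both KO1 and KO2. The 95% interval of the Ccl5 difference, -3.32 to 2.09, was wide enough to hold either direction. KO1 and KO2 set against each other passed no gene in either cell type, with 420 genes in microglia and 727 in endothelial cells at an unadjusted p under 0.05. The knockouts against PBS passed 1 gene in microglia (0.00833%) and 5 in endothelial cells (0.041%), none of them a member.

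The authors' deposited table for microglia, which is named for a likelihood ratio test, lists 238 genes. Ccl5 stands second by p in the authors' deposited table (adjusted p 9.161e-32) and Ccl2 has rank 4 (adjusted p 7.651e-19). Of the members, only these 2 are among its 238 genes. The sources used here do not state which models that test compared. In the authors' deposited table for endothelial cells, with 362 genes, Ccl5 is the only member (adjusted p 0.002547, rank 148).

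In endothelial cells Ccl5 was low with PBS, at 239, 82.0 and 43.7 normalised counts in A, B and C. It was at 2904 (WT) and 2431 (KO1) in letter A, at 1359 (WT), 738 (KO1) and 3457 (KO2) in letter B, and at 290 (KO1) and 192 (KO2) in letter C. Each of the 7 exosome libraries was above the PBS library of its letter, by 8.99 to 42.1 times in letters A and B. The C libraries again were the lowest of the exosome libraries, and KO2 C lay below PBS A. The log2 difference to PBS was 0.39 (SE 0.14, unadjusted p 0.0232, limma adjusted p 0.51) on a deposited scale that compresses low counts strongly in this table. On log2 of recovered counts plus 1 the same difference was 3.51 (SE 1.03, adjusted p 0.345), and with plus 50 it was 2.95 (SE 0.94, adjusted p 0.466), and neither passed.

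Ccl2 in endothelial cells was at 2480, 9634 and 6021 in PBS A, B and C. With exosomes it was at 7626 (WT A), 17421 (WT B), 9819 (KO1 A), 9042 (KO1 B), 3237 (KO1 C), 12376 (KO2 B) and 7452 (KO2 C). Of 7 same-letter comparisons 5 were above PBS, and the groups overlapped. On the deposited log2 scale its difference was 0.29 between all exosomes and PBS (SE 0.18, limma adjusted p 0.796) and 0.45 between WT and PBS (SE 0.24, adjusted p 0.57). These are not log2 ratios of counts, as WT A, at 3.075 times PBS A, differed from it by 0.513 there. Ccl7 ranged from 438 to 2885 with PBS and from 1029 to 4432 with exosomes, with 4 of 7 same-letter comparisons above PBS.

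**Figure D4:**
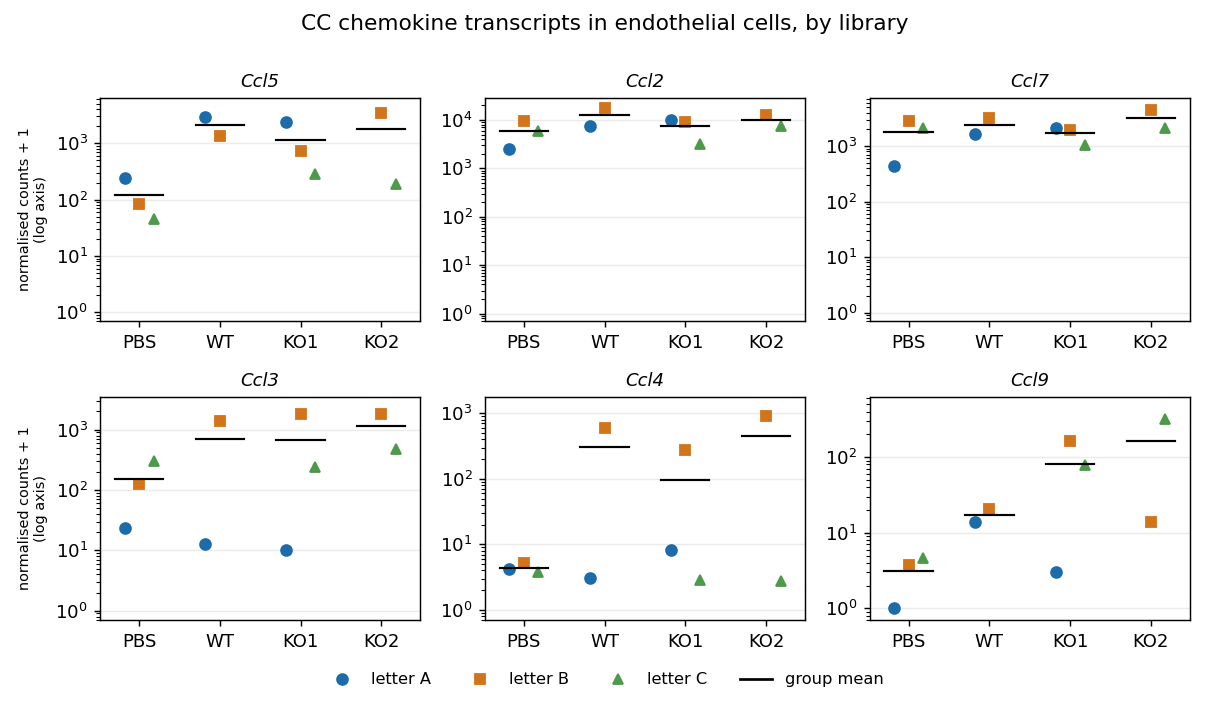
Normalised counts plus 1 (log axis) of 6 CC chemokine transcripts in the 10 endothelial libraries, by group. Points are libraries, colour and shape give the letter, and horizontal lines are group means. Ccl5 is above PBS of its letter in all 7 exosome libraries, and Ccl4 is high in the 3 letter B exosome libraries alone.

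Ccl3 and Ccl4 were high in 3 endothelial libraries, those of letter B with exosomes. There Ccl3 was at 1372 (WT), 1811 (KO1) and 1815 (KO2), against 22.1 to 304 with PBS and 9.18 to 469 in the other 4 exosome libraries. Ccl4 was at 603, 277 and 898 in the same 3 and at most 7.12 elsewhere. Itgam, the gene of the myeloid marker CD11b, was at 1226, 1298 and 438 in these 3 libraries and at most 27.3 in the other 7. The monocyte markers summed to 740, 2625 and 1532 there, mostly from Ace, which endothelial cells also express, and to 11.9 to 157 elsewhere. The border macrophage markers summed to 8049, 9485 and 10985 there and to 8314 to 19129 elsewhere, mostly from Stab1. Of these markers, Pf4 was at 540, 180 and 811 there and at most 128 elsewhere. Ptprc did not follow Itgam. It was listed at 0 in WT B and KO2 B, at 119 in KO1 B and at 290 in KO2 C. P2ry12 was listed at 0 in all 10 endothelial libraries. It was also at 0 in all but KO1 B of the libraries labelled microglia, so its absence cannot show whether microglia were present. The part of these myeloid transcripts in the Ccl3 and Ccl4 values was not tested.

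Ccl9 was at 0 to 3.64 in the endothelial PBS libraries and above PBS of its letter in 7 of 7 comparisons, at 2.06 to 315. In every pair, 2 of 9 members (Ccl5 and Ccl9) were above PBS, against 2.94% of 12197 genes. Pairs of the same letter share a PBS library. Ccl6 was at most 153 normalised counts (KO1 B) and below PBS in 4 of 7 comparisons. Ccl12 was listed at 0 in 9 libraries and at 137 in KO2 B. Ccl19, a ligand of Ccr7 on dendritic cells and naive T cells, was listed at 0 in 7 libraries and held 676 in WT A, 82.1 in KO2 B and 2.17 in KO1 B. Ccl24 did not exceed 11.1.

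No member passed in endothelial cells. With all exosomes set against PBS, 18 of 12197 genes passed, all lower with exosomes (0.148%). WT against PBS (0%, 1214 genes at an unadjusted p under 0.05) and the knockouts against WT (0%, 1015 genes) passed none by limma. Of the 9 members tested, 7 lay above 0 with all exosomes against PBS (median 0.12, all genes -0.008). Of these 7, Ccl19 was listed at 0 in every PBS library and entered through exosome libraries alone, so it could not lie below 0. With the knockouts against WT 3 members lay above 0 (median -0.009, all genes 0.006). Of all genes, 45.2% lay above 0 in the former comparison and 53.4% in the latter. On the deposited scale, which compresses ratios, the knockout minus WT difference of Ccl5 was -0.17 (95% interval -0.56 to 0.23), and that of Ccl2 was -0.24 (-0.73 to 0.26).

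Markers of other cell types differed between letters and treatments. In endothelial cells the 10 markers of choroid plexus and ependyma, among them Ttr, summed to 954 to 7381 normalised counts with PBS. They summed to 202124 to 359969 in the exosome libraries of letters A and B, where Ccl5 was also highest, and to 6709 to 22843 in those of letter C. In microglia the 10 markers of border macrophages summed to 2761 to 5036 with PBS, 4807 to 9513 with exosomes in letters A and B, and 2640 to 3437 in letter C. The 8 neutrophil markers summed to 212 to 268, 342 to 847 and 194 to 321 in the same order. Of these, Cxcr2 was at 158 to 321 in every library and Mmp8 reached 583 (WT B). Ly6g and Retnlg were listed at 0 in all 11, and S100a9 did not exceed 6.0. The border macrophage markers went different ways. Ms4a7 was at 104 and 193 with PBS, 786 to 1737 with exosomes in letters A and B, and 146 to 741 in letter C. Pf4 reached 4928 (KO1 B) and Stab1 3896 (WT B), while Cd163 and Cbr2 were listed at 0 in all 11 microglial libraries. The 6 monocyte markers summed to at most 39.9. The part of these cells in the chemokine values was not tested.

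Receptors and regulators were read from lists of the pathway. No gene of the 6 lists passed in any of the 5 comparisons by limma without a term for the letter and with Benjamini-Hochberg adjustment. Of 11 CC receptors, 6 were tested in microglia, and with exosomes against PBS 2 lay above 0 (median -0.07). Ccr1, a receptor of Ccl3 among others, was at 5333 and 6022 normalised counts in microglial PBS A and B and at 3472 to 8822 with exosomes, while Ccr2 did not exceed 26.2. The groups overlapped for Ccr1. Of 17 signalling genes downstream of chemokine receptors, 16 were tested in each cell type. With exosomes against PBS 5 lay above 0 in microglia (median -0.09) and 7 in endothelial cells (median -0.004). Of the 5, Grk3 was listed at 0 in every microglial PBS library and could not lie below 0. In the same comparison 49.9% of all tested genes lay above 0 in microglia and 45.2% in endothelial cells.

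Of the 10 NF-kB subunits and inhibitors, 7 lay above 0 in microglia (median 0.13) and 2 in endothelial cells (median -0.02) with exosomes against PBS. For all genes the shares above 0 were 49.9% in microglia and 45.2% in endothelial cells. Tnfaip3, which encodes the feedback inhibitor A20, had the largest difference of this list in microglia (0.64, SE 0.31, limma adjusted p 0.909). In the authors' deposited table for microglia its adjusted p was 0.0008299. That of Nfkbia was 0.03475 and that of Nfkb2 0.04714 in the authors' deposited table, and the other 7 genes of the list are not among its 238. The inhibitor Nfkbia was at 8561 and 13421 normalised counts in PBS A and B, at 12954 to 21054 in the exosome libraries of letters A and B, and at 7257 to 8613 in letter C. Nfkbia thus overlapped PBS B in KO2 B. Ccrl2, a receptor-like protein that presents chemerin, was above both PBS libraries in letters A and B and below them in letter C: 9844 and 12086 with PBS, 15550 to 26345 in letters A and B, and 4724 to 7040 in letter C. In the authors' deposited table for microglia Ccrl2 has rank 13 (adjusted p 6.836e-11).

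In endothelial cells the atypical receptor Ackr1, which binds and carries inflammatory chemokines across venules, was at 5548, 6842 and 1727 in PBS A, B and C. It was at 12318 to 23374 in the exosome libraries of letters A and B and at 825 and 1278 in letter C. Its difference between all exosomes and PBS did not pass, and none of the 5 genes of its list did. Of 12 heparan sulphate genes 9 lay above 0 (median 0.10), against 45.2% of all genes. Among the 9, Gpc1 was listed at 0 in every PBS library and could not lie below 0. Sdc4, a heparan sulphate core protein, was at 64.6 to 432 with PBS, 1715 to 3292 in letters A and B, and 288 and 1068 in letter C. In the authors' deposited table its adjusted p was 7.218e-06 for endothelial cells. Of the lists, that table also holds Rgs2 (4.772e-08), and the authors' deposited table for microglia also holds Ndst2 (0.01013). Of the 14 other CC ligands 5 were tested in each cell type, and 3 lay above 0 in both. Endothelial Ccl20 and microglial Ccl8 and Ccl17 were listed at 0 in every PBS library of their cell type and could not lie below 0. Among all genes, 45.2% lay above 0 in endothelial cells and 49.9% in microglia. Ccl11, an eosinophil attractant, was at 444 to 1639 with endothelial PBS and 326 to 3816 with exosomes.

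Members varied together in groups, described here by Pearson's r of the deposited log2 values over the libraries of a cell type, which share groups and letters. In microglia, over 11 libraries, r was 0.98 for Ccl3 and Ccl4, 0.9 for Ccl2 and Ccl5, 0.88 for Ccl5 and Ccl7, and 0.77 for Ccl6 and Ccl9. Ccl5 and Ccl6 had r of -0.46. In endothelial cells, over 10 libraries, r was 0.88 for Ccl2 and Ccl7 and 0.87 for Ccl3 and Ccl4. The annotated spans of Ccl3 and Ccl4 overlap, but their coding transcripts share no 31-base word. The genes most like Ccl3 among 11986 others in microglia were Junb (0.956), Adgre1 (0.934), Il1a (0.932), Nfkbiz (0.93) and Csf3 (0.926). Il1a was at 13897 and 19578 normalised counts in PBS A and B, at 18806 to 38647 in the exosome libraries of letters A and B, and at 10085 to 12473 in letter C. The genes most like Ccl2 among 12180 others in endothelial cells were Lif (0.956), Lpcat3 (0.938), Ednra (0.898), Oaz2 (0.896) and Snapc2 (0.893).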

How the data were processed

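The submitters' processing notes name GRCm38.p6 and 4 tools without their roles: DESeq2 1.18.1, Salmon 0.10.0, Trimmomatic 0.38 and FastQC 0.11.7. The authors deposited log2 values for each cell type, variance-stabilised per the labels, with a floor of 13.2814 in endothelial cells and 9.8893 in microglia for genes without reads. The authors' deposited tables of their own test hold mean normalised counts (a signal), a test statistic (a score), log2 fold changes and p-values. Normalised counts were recovered from the deposited log2 values, in endothelial cells by the closed inverse of the transform. In microglia a curve through the authors' 238 means was used (largest error 0.777% for genes held out), which is not anchored below a mean of 54.3. The endothelial read depth, taken from the step between low values, was about 18.3 to 35.6 M reads per library, with 72.7 to 89.0% of low values within 0.05 of a whole step. That of microglia is unknown.

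The test was limma (3.58.1, R 4.3.3) with a trend of variance on mean, applied to the deposited log2 values. Each cell type had 1 fit over its libraries with no term for the letter, and Benjamini-Hochberg adjustment at 0.05. Genes above the floor in at least 3 libraries entered, which left 12197 and 12002. The fit was tested on simulated data. A symbol was found for 20537 of the 20555 identifiers. The text names all 10 members, genes of 6 pathway lists that passed (none did) or whose values stand beside a result (chosen after their values were seen), and the 5 genes most like the leading member. Members and lists were chosen with earlier results of these data known. Single member differences are given for 3 of 5 comparisons, a choice made after all were computed, as were the TATAA search and the ratio minimum of 50 counts. Alternatives were other filters, log2 of recovered counts plus 1 or 50, the letter as a block, and leaving out libraries. Some items are not reported here.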

Additional observations from a re-analysis of the deposited data

How the results depend on the processing

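Group sizes of 2 or 3 and unequal letters limit what could pass: microglial PBS holds letters A and B only, and microglial values near the floor are approximate. In the simulated data a shift of 4 SD was found for part of the changed genes only. Of 54 member differences recomputed 915 times, 866 kept their sign, and 6 passed where the main test did not: 4 with the letter as a block, Ccl2 in microglia without the C libraries, and Ccl19 in endothelial knockouts minus WT without WT B (-0.34, limma adjusted p 0.0363). Where 1 library of a group was left, it was assumed to vary like the other groups. Causes were not tested.

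Libraries of the same letter deviated from their group means with correlations of 0.022 to 0.228 in endothelial cells (12 pairs, median 0.12) and 0.013 to 0.33 in microglia (15 pairs, median 0.078). For different letters they ran from -0.228 to 0.113 in endothelial cells (25 pairs, median -0.048) and from -0.246 to 0.065 in microglia (30 pairs, median -0.04). The best partner had the same letter for 9 of 10 endothelial and 10 of 11 microglial libraries, a hint from the data only, and the letters were not taken as pairing the libraries. With the letter as a replicate block, 28 genes passed in microglia between all exosomes and PBS, 19 between WT and PBS, 11 between the knockouts and PBS, and 0 in endothelial cells in each of these comparisons. With that block, microglial Ccl5 was 2.95 higher with all exosomes than PBS (SE 0.23, limma adjusted p 0.00106) and 3.36 with WT (adjusted p 0.00116), microglial Ccl2 was 1.47 (adjusted p 0.0034) and 1.58 (adjusted p 0.00624), and Ccrl2 was 0.80 (adjusted p 0.0422) and 1.09 (adjusted p 0.0175). Endothelial Ccl5 was 0.38 (adjusted p 0.361), and endothelial Ccl4 in knockouts minus WT turned to 0.0024. No other member passed with the block.

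Counts of passing genes in endothelial cells varied between settings for all exosomes minus PBS (18), WT minus PBS (0), knockouts minus PBS (5), knockouts minus WT (0) and KO1 minus KO2 (0). With a mean at least 1 above the floor they were 0 for all exosomes, 0 for knockouts minus PBS and 1 for KO1 minus KO2. With no filter they were 9 for WT minus PBS, 17 for knockouts minus PBS, 6 for knockouts minus WT and 3 for KO1 minus KO2. On log2 of counts plus 1 they were 9, 17 and 19 for WT minus PBS, knockouts minus PBS and knockouts minus WT, and on log2 of counts plus 50 they were 13, 19 and 6, with 3 for KO1 minus KO2. Without the C libraries they were 0 for all exosomes and 0 for knockouts minus PBS, and with only the groups compared 0 for knockouts minus PBS. Leaving out each library in turn gave 0 to 11, 0 to 10, 0 to 3, 0 to 48 and 0 to 19 in the order first named, the highest without KO1 B or KO2 B, WT B, KO1 B, WT B and KO2 B. In microglia the counts were 1, 0, 1, 0 and 0 in that order. With a mean at least 1 above the floor they were 0 for all exosomes and 0 for knockouts minus PBS, and with no filter 1 for WT minus PBS and 1 for KO1 minus KO2. On log2 of counts plus 50 they were 10 for all exosomes, 4 for WT minus PBS, 9 for knockouts minus PBS and 1 for KO1 minus KO2. Without the C libraries 3 passed for all exosomes, and with only the groups compared 0 for knockouts minus PBS. Leaving out each library in turn gave 0 to 2, 0 to 2, 0 to 1 and 0 to 1 for the first 4 comparisons.

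Other sign changes were of differences that passed in neither setting. On log2 of counts plus 50 endothelial Ccl24 in WT minus PBS was 0.014, and microglial Ccl7 in knockouts minus WT was 0.012 (0.036 with plus 1). Without the C libraries endothelial Ccl6 was 0.0011 for all exosomes minus PBS, and knockouts minus WT was 0.098 for Ccl4, 0.043 for Ccl5 and 0.099 for Ccl7. Leaving out each library in turn, endothelial differences for all exosomes minus PBS ran from -0.018 to 0.22 for Ccl7. For WT minus PBS they ran from -0.015 to 0.23 for Ccl7, 0 to 0.37 for Ccl19, -0.030 to 0.018 for Ccl24, -0.11 to 0.37 for Ccl3 and -0.0055 to 0.33 for Ccl4. For knockouts minus WT they ran from -0.16 to 0.33 for Ccl3, -0.34 to 0.036 for Ccl19, -0.52 to 0.048 for Ccl2, -0.19 to 0.14 for Ccl4, -0.11 to 0.11 for Ccl7, -0.033 to 0.015 for Ccl24 and -0.0084 to 0.038 for Ccl6. In microglia all exosomes minus PBS ran from -0.29 to 0.78 for Ccl3, -0.37 to 0.52 for Ccl4, -0.23 to 0.64 for Ccl7, -0.13 to 0.23 for Ccl24 and -0.24 to 0.073 for Ccl9. There WT minus PBS ran from -0.12 to 0.78 for Ccl4, -0.16 to 0.71 for Ccl7 and -0.010 to 0.35 for Ccl24. Knockouts minus WT ran from -0.69 to 0.11 for Ccl2, -1.91 to 0.45 for Ccl5, -0.51 to 0.20 for Ccl7 and -0.081 to 0.39 for Ccl9.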
